A study of Mus musculus with 72 samples.

Results

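Kirrel2, Kirrel3, Nphs1, Pcdh10, S100a5, Lrrc3b and Pcp4l1 are 7 genes of axon sorting and of sensory activity in olfactory neurons, and they were followed through all 72 libraries of a study of the Wnt receptor gene Fzd1 in the mouse nose. They were chosen by their measured levels, several having been lower where Fzd1 was expressed ectopically, and were matched from symbol to Ensembl identifier. They are 7 of the 54532 genes in the deposited tables, and all 7 were among the 22144 that passed the filter on low counts. The comparison of ectopic Fzd1 with control without doxycycline (DOX) chose them, so it is given below as a description with no test.

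Total RNA of olfactory epithelium was sequenced after removal of ribosomal RNA. Control mice carried Omp-IRES-tTA, in which cells that express Omp, mature olfactory sensory neurons, make the transactivator tTA, and they carried no other allele named in the labels. The ectopicFzd1 mice carried Omp-IRES-tTA and tetO-Fzd1-IRES-tdTomato, in which Fzd1 and the fluorescent protein tdTomato depend on tTA and are shut off by DOX. Fzd1lacZ mice carried the Fzd1-lacZ knockout allele, homozygous by the library titles, and the labels name no tTA in them. Without DOX, libraries of these 3 genotypes came from postnatal days (P) 0, 3, 7, 10 and 14. With DOX started at P0, libraries of control and ectopicFzd1 began at P1 and then followed the same days. Of the 25 groups 22 held 3 libraries, and control at P3, control at P7 and ectopicFzd1 at P14, all without DOX, held 2. In the library titles control is written wt (ctrl at P3 without DOX) and ectopicFzd1 is written het. By the genotype labels no group was wild type or carried tetO-Fzd1 alone. Going by these labels, the knockout was compared with tTA mice, and the tTA status of single libraries was not tested. Effects of Fzd1 and tdTomato cannot be told apart. The labels do not say that libraries of a group are separate animals, so a p-value here covers only the spread among libraries, which may be technical.

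In the nose each sensory neuron expresses mainly one kind of odorant receptor, and axons of neurons with the same receptor gather in shared glomeruli of the olfactory bulb. Neuronal activity through the receptor, its G protein and cyclic AMP sets the levels of adhesion molecules that sort neighbouring axons, among them Kirrel2, Kirrel3 and the protocadherin Pcdh10. Kirrel proteins and nephrin, the product of Nphs1, are immunoglobulin superfamily molecules that bind one another and are best known from the slit diaphragm of the kidney.

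Libraries held 1.315 M to 8.788 M gene counts (median 4.28 M), which were 8.95% to 47.2% of their reads. A family of 13 predicted genes with satellite-like reads took 0.054% to 73.8% of gene counts, and over 25% in 8 libraries. Most of these 8 were Fzd1lacZ libraries, from P7, P10 and P14. Fzd1 checked the labels. It was between 3.48 and 20.3 CPM (read counts scaled to the library's size with its TMM factor) in Fzd1lacZ, between 20.9 and 44.3 in control without DOX, and between 43.0 and 2122 in ectopicFzd1 without DOX. Under DOX the ectopicFzd1 libraries held 22.0 to 64.0 CPM and the control libraries 3.45 to 54.3 CPM. By age, Fzd1 in ectopicFzd1 lay wholly above control at P1, P3 (36.1 to 39.1 against 21.6 to 33.6 CPM) and P14 (34.1 to 37.4 against 20.7 to 28.0 CPM). At P7 and P10 the arms overlapped. Of all genes 1.18% lay wholly above control at 3 or more of the 5 ages. The part of this Fzd1 difference in the comparisons with DOX was not tested. A library labelled ectopicFzd1 P3 (here replicate 3, 43.0 CPM) and a library labelled control with DOX P7 (here replicate 1, 3.45 CPM) went against their labels. Replicate numbers were assigned here, since the labels carry none. In the ectopicFzd1 arm with DOX, 1 number recurs in the titles of the 3 P3 libraries, and another in those of 1 P10 and 1 P14 library. Mature neuron markers such as Adcy3, Cnga2 and Gnal were detected in every arm, and Trpc2, which defines vomeronasal neurons, stayed under 1 CPM in every library. The 5 vomeronasal markers summed to 3.26 to 66.7 CPM, with a median of 31.1 CPM in ectopicFzd1 and 15.9 CPM in control without DOX, where 1 of them, Calr4, was called higher (1.59, SE 0.27).

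On the mm10 assembly with GENCODE M21, Kirrel2 lies on chromosome 7 from 30447534 to 30457690 on the minus strand and Nphs1 on chromosome 7 from 30458315 to 30487223 on the plus strand. The pair runs head to head with 624 bases between the annotated genes. Kirrel3 spans 9:34485894-35036716 (plus), Pcdh10 3:45378398-45435623 (plus), S100a5 3:90608523-90611780 (plus), Lrrc3b 14:15357515-15438987 (minus) and Pcp4l1 1:171173262-171196268 (minus). Strand use in counting is not stated. Nphs1, Kirrel3, Pcdh10 and Lrrc3b overlap annotated genes on the opposite strand, and their counts are uncertain to that extent. The antisense gene Nphs1os had 0 to 3 counts per library, 1700027H10Rik, opposite Pcdh10, 0 to 4, and Kirrel3os and B230110C06Rik, opposite Lrrc3b, 1 to 30 each. No annotated gene overlaps Kirrel2, S100a5 or Pcp4l1.

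Sequence before a RefSeq start was held for 6 members by the promoter table on GRCm38.p6, and Kirrel3 had no entry. The Nphs1 window, chr7:30459808-30460057, lies inside the annotated gene, so the sequence before its annotated start was not searched as the Nphs1 promoter. That of Kirrel2 lies partly inside its own annotated gene. The 250 bases before the start are shown for Kirrel2 and S100a5, whose levels ran most alike over the groups, and for Pcdh10. Capitals mark a match, on either strand, to TGACG (the core of the cyclic AMP response element), TAATTA (a homeodomain core) or CCCNNGGG (a core of the Olf/Ebf site). The windows are chr7:30457516-30457765 on the minus strand for Kirrel2, chr3:90608272-90608521 on the plus strand for S100a5, and chr3:45378148-45378397 on the plus strand for Pcdh10.
Kirrel2: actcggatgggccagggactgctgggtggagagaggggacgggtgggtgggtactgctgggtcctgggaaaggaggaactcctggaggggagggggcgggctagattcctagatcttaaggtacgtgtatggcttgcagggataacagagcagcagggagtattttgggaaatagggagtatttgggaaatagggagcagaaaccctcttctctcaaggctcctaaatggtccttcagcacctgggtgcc
S100a5: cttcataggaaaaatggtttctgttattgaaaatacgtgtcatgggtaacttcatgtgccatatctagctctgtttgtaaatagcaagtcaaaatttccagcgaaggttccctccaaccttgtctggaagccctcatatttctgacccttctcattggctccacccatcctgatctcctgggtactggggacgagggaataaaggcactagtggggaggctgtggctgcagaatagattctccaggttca
Pcdh10: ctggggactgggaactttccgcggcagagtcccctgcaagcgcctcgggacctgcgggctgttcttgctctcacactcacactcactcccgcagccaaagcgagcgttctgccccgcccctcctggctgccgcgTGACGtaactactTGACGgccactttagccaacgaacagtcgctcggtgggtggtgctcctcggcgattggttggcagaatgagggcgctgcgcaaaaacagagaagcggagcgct
TGACG occurred in Pcdh10 alone of the 6, with matches beginning 116 and 103 bases before the start on the gene's strand, and in 17.8% of the 32851 promoters of the table. TAATTA (4.84% of all promoters) and CCCNNGGG (11.8%) were found in none of the 6. A match is a string of letters and shows no binding.

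Levels per gene length, in TPM (transcript abundance scaled for gene length and library by the authors), ordered the members. S100a5, which encodes a calcium-binding protein of mature olfactory neurons, was the highest with a median of 172 TPM over the 72 libraries (9.87 to 668). Pcp4l1, a relative of the calmodulin regulator Pcp4, had a median of 35.5 TPM and Kirrel2 of 19.6 TPM. Lrrc3b, which encodes a leucine-rich repeat membrane protein, stood at 5.18 TPM, Kirrel3 at 3.99 TPM, Pcdh10 at 3.93 TPM and Nphs1 at 1.13 TPM. Across libraries the ranges of neighbours in this order overlapped. Nphs1 rested on 5 to 118 counts per library, Lrrc3b on 4 to 285 and Kirrel3 on 5 to 281, so single libraries of these genes are imprecise.

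**Figure D1:**
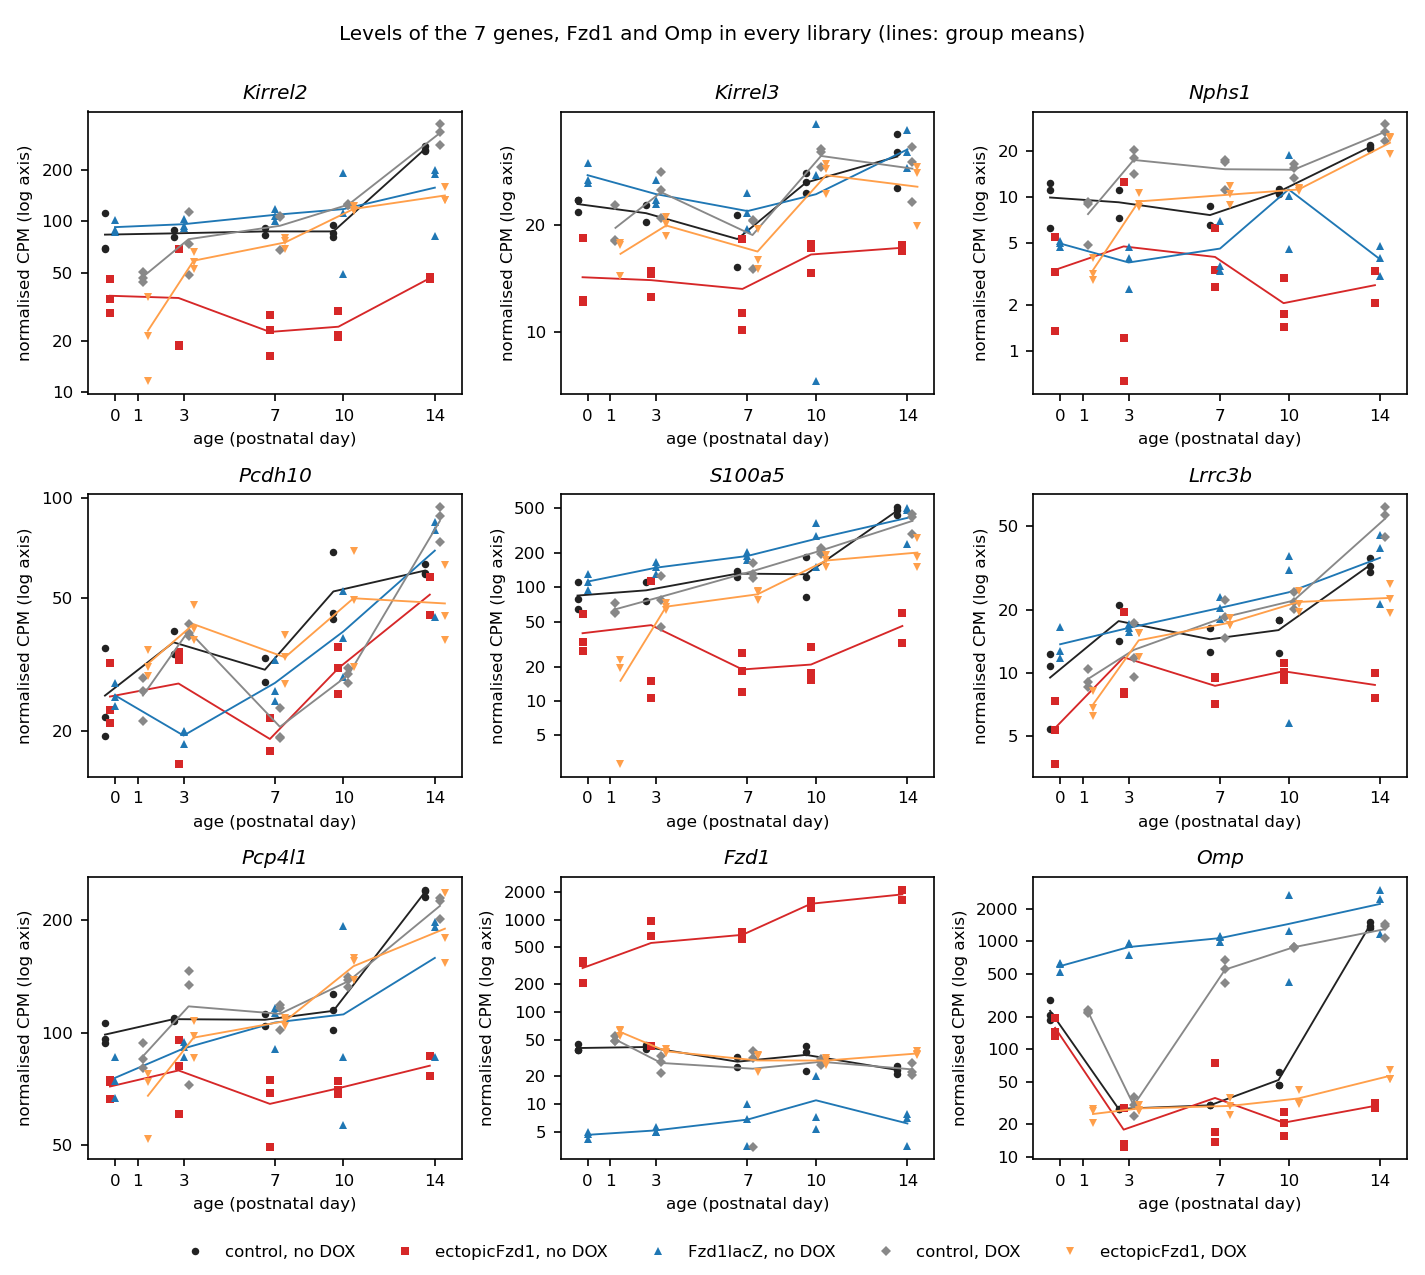
Normalised CPM (log axis) of the 7 genes, Fzd1 and Omp in each library against age in postnatal days, with lines through the group means, for control, ectopicFzd1 and Fzd1lacZ without DOX and control and ectopicFzd1 with DOX from P0. Without DOX all ectopicFzd1 libraries lie under the lowest control library at 5 of 5 ages for Kirrel2 and Pcp4l1, and Nphs1 in Fzd1lacZ lies at 3.05 to 4.79 CPM at P14.

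All 7 members were higher at P14 than at P1 in mice given DOX, with control and ectopicFzd1 averaged, against a background of 48.4% of genes called in either direction and 21.8% called higher (adjusted p below 0.05 by edgeR's quasi-likelihood test with Benjamini-Hochberg adjustment over 22144 genes). S100a5 rose most, by 3.14 on the log2 scale (SE 0.32), followed by Kirrel2 at 2.70 (SE 0.22), Nphs1 at 2.28 (SE 0.27) and Lrrc3b at 2.11 (SE 0.19). In control with DOX, Kirrel2 went from 44.3, 46.8 and 50.8 CPM at P1 to 336, 370 and 281 CPM at P14. S100a5 went from 72.2, 61.3 and 59.1 CPM to 416, 448 and 297 CPM in the same libraries. Every P14 library lay above every P1 library in both genes, and the share of all genes that did so was not counted. The number series of the titles (the leading digits of the number in each) is shared by P1 and P14 in control with DOX. In ectopicFzd1 with DOX it differs between these ages. Pcp4l1 rose by 1.41 (SE 0.16), Pcdh10 by 1.15 (SE 0.16) and Kirrel3 by 0.58 (SE 0.14). On log2(TPM + 1), where the median of all genes moved by -0.59, Kirrel3 was at -0.44 and Pcdh10 at -0.02, so their direction depends on the scale.

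Without DOX, between P0 and P14, 6 of 7 members rose in control (45.7% of genes called, 23.5% higher). In control and in Fzd1lacZ alike the title number series differs between P0 and P14, so series and age cannot be told apart. Kirrel3 was the exception at 0.43 (SE 0.19, edgeR adjusted p = 0.0508). Nphs1 rose by 1.09 (SE 0.35), a call that was lost without control P0 replicate 2 (edgeR adjusted p = 0.0677). In Fzd1lacZ, 5 of 7 rose (22.5% of genes called, 11.5% higher), with S100a5 at 1.87 (SE 0.42), Pcdh10 at 1.47 (SE 0.23) and Lrrc3b at 1.42 (SE 0.26). Kirrel2 rose there by 0.79 (SE 0.30, edgeR adjusted p = 0.0451), and this call was lost without any single library except Fzd1lacZ P14 replicate 1, with edgeR adjusted p up to 0.246. Nphs1 did not pass in Fzd1lacZ, at -0.41 (SE 0.48, edgeR adjusted p = 0.604). Limma on log2 TPM called none of the 7 between these ages in Fzd1lacZ. The 13 mature neuron markers rose with age too (12 of 13 in control, 10 of 13 in Fzd1lacZ), and in bulk tissue more cells of a type and more RNA per cell cannot be told apart.

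With ectopic Fzd1 and no DOX, all 7 members were lower than in control over the 5 ages, against 9.19% of all genes called and 6.52% called lower. This is the contrast that chose them, so the values describe and nothing is read from the count. S100a5 was 4.78-fold lower, at 10.5, 27.0 and 114 CPM (lowest, median and highest of 14 libraries) against 64.3, 124 and 514 CPM in 13 control libraries. The highest ectopicFzd1 value, 114 CPM, came from P3 replicate 3, whose 2 companions were at 10.5 and 14.9 CPM. Kirrel2 was 3.47-fold lower, at 16.3, 28.7 and 69.2 CPM against 69.3, 88.7 and 276 CPM. Nphs1 was 3.87-fold lower, at 0.635, 2.80 and 12.5 CPM against 6.34, 11.2 and 21.7 CPM. Leaving out the 2 libraries that go against their labels took these values from log2 -2.26 to -2.60 for S100a5, from -1.80 to -1.95 for Kirrel2 and from -1.95 to -2.30 for Nphs1.

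The other 4 members differed less. Lrrc3b was 1.97-fold lower, Pcp4l1 1.71-fold, Kirrel3 1.60-fold and Pcdh10 1.35-fold. At every one of the 5 ages all ectopicFzd1 libraries lay under the lowest control library for Kirrel2 and Pcp4l1, which 0.506% of genes did. For Kirrel3, Nphs1 and S100a5 this held at 4 of 5 ages (2.40% of genes at 4 or more), and for Pcdh10 and Lrrc3b at 3 of 5 (5.94% of genes at 3 or more). The differences were widest at P14 for 6 of the members and at P10 for Pcdh10. At P14 S100a5 stood at 59.3 and 32.1 CPM against 440, 479 and 514 CPM in control, Kirrel2 at 47.0 and 45.9 CPM against 276, 257 and 260 CPM, and Nphs1 at 3.31 and 2.04 CPM against 20.5, 21.3 and 21.7 CPM. At P14 the number series of the titles differs between these arms, so series and genotype cannot be told apart there. With the series as a covariate over P0 to P10, which leaves P14 out, the log2 differences were -1.78 for S100a5, -1.48 for Kirrel2 and -1.43 for Nphs1. These values differ from those over the 5 ages in both the ages used and the adjustment. In that fit the P7 difference rests on ectopicFzd1 P7 replicate 1, the only one there to share its series with control. That library held 43.5% of its gene counts in the satellite-like family. The difference without DOX minus that with DOX, over P3 to P14, was -1.99 for S100a5, -1.51 for Nphs1 and -1.43 for Kirrel2. It holds the contrast that chose the genes, so the members are not counted in it; 2.39% of all genes were called.

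**Figure D2:**
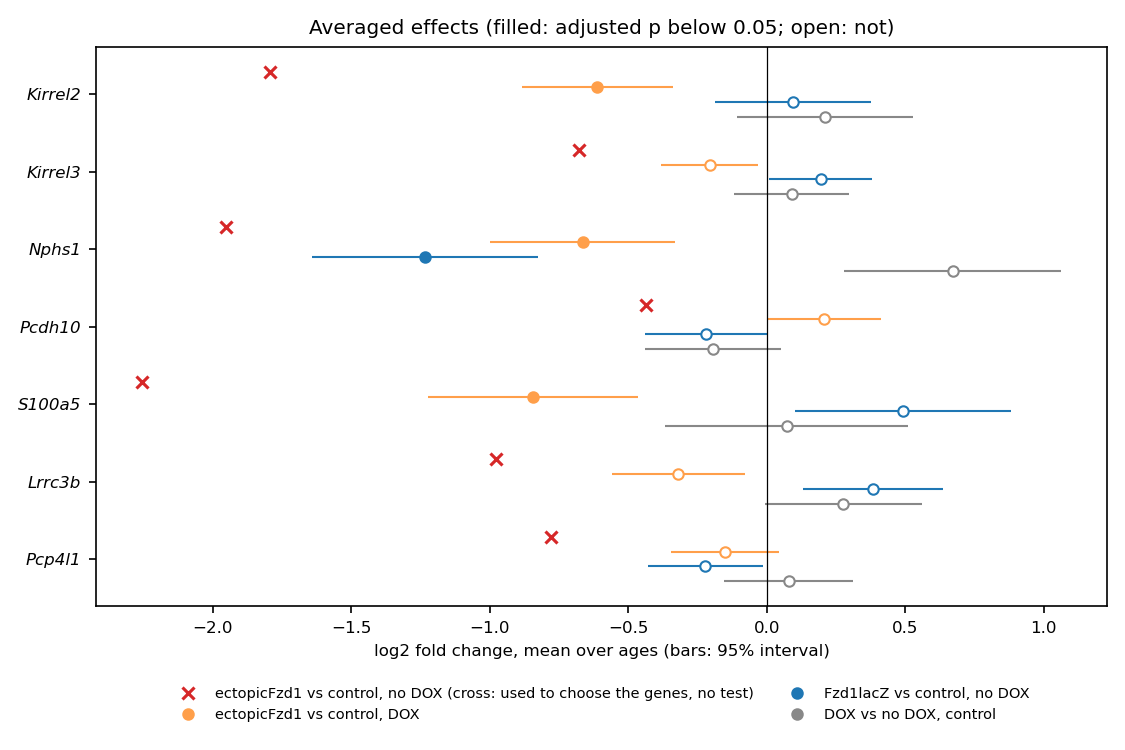
Log2 fold changes averaged over ages for the 7 genes in 4 comparisons, with 95% intervals. Crosses are the contrast that chose the genes and carry no test, filled points passed the threshold and open points did not. Kirrel2, Nphs1 and S100a5 stay below 0 with DOX, and Nphs1 alone is filled for Fzd1lacZ, at -1.23.

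Mature neuron markers moved with these differences. Of the 13 markers 12 were called lower with ectopic Fzd1 (6.52% of all genes), and their summed level ran from 1044 to 2897 CPM (median 1451) in ectopicFzd1 against 1123 to 5398 CPM (median 2814) in control. The mean difference of the 13 in log2 level was -0.71. Measured in the same way, Kirrel3 (-0.63), Pcp4l1 (-0.78) and Lrrc3b (-0.87) lay close to that, and Pcdh10 (-0.42) lay above it. Nphs1 (-1.66), Kirrel2 (-1.78) and S100a5 (-2.34) lay below it by 0.95, 1.07 and 1.63. Markers of other cells moved too. Of the 7 olfactory bulb markers Eomes (-1.23, SE 0.18) and Cdhr1 (-0.45, SE 0.10) were called lower, and their sum was 42.2 to 88.6 CPM (median 54.2) against 46.1 to 101 CPM (median 78.5). The sustentacular marker Cbr2 (0.49, SE 0.12) and the immature neuron marker Gng8 (0.34, SE 0.09) were called higher. The part of these markers in the values of the members was not tested.

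Omp also differed between arms. It was between 12.4 and 195 CPM in ectopicFzd1 and between 27.8 and 1514 CPM in control without DOX, and the means of the arms, in CPM, were closest at P3 and P7 (as a ratio they were closer at P0 than at P3). Control stood at 27.8 and 27.9 CPM at P3 and 30.0 and 30.1 CPM at P7, and ectopicFzd1 at 12.4 to 28.1 and 13.8 to 74.7 CPM. At P3 the 28.1 CPM is from the library that goes against its label, and the others were at 12.4 and 13.1 CPM. At P7 the 74.7 CPM, which raised the ectopicFzd1 mean to 35.2 CPM, is from replicate 1. The others were at 17.1 and 13.8 CPM, below both control libraries. Replicate 1 held 43.5% of its gene counts in the satellite-like family, and its title series differs from theirs. Over these 2 ages alone, the log2 differences of the members were -2.04 for S100a5, -1.69 for Kirrel2 and -1.33 for Nphs1. At P7 alone they were -2.90, -1.99 and -1.08.

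**Figure D3:**
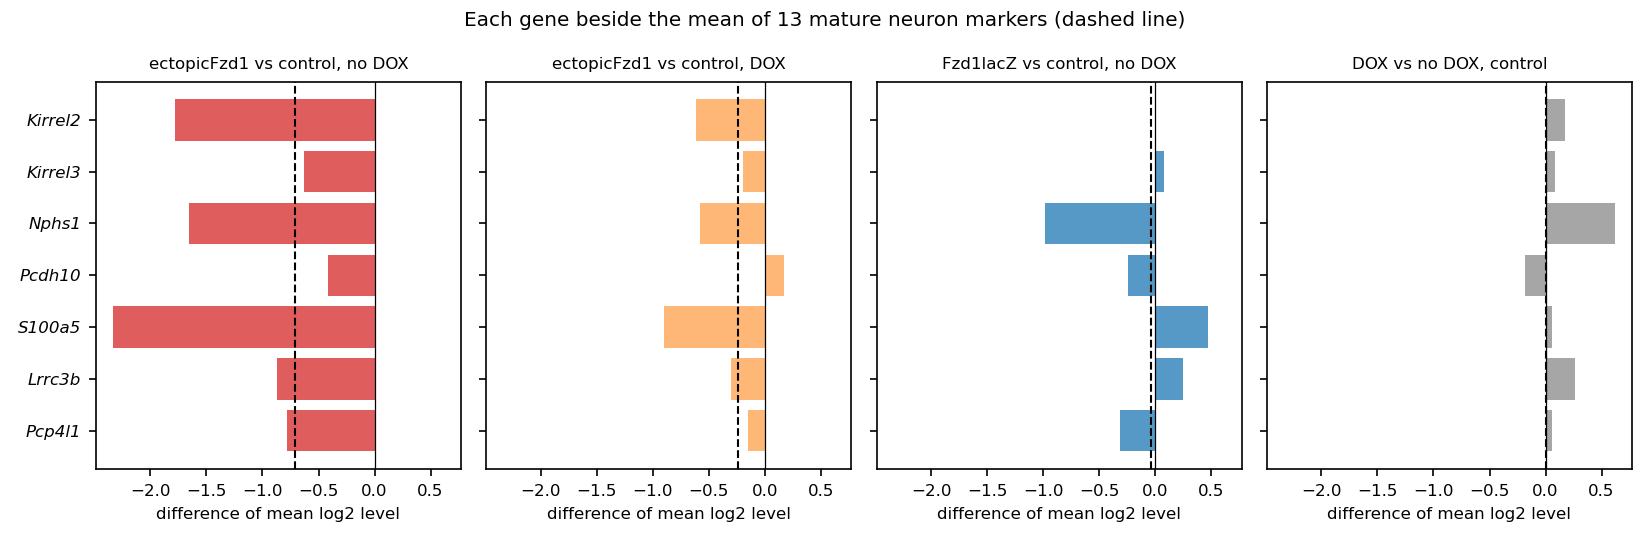
Difference of mean log2 level for each of the 7 genes (bars) and the mean difference of 13 mature olfactory neuron markers (dashed line) in 4 comparisons averaged over ages. In ectopicFzd1 without DOX the bars of Kirrel2, Nphs1 and S100a5 pass the marker line at -0.71 and the other 4 end near or before it.

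Kirrel2, Nphs1 and S100a5 were lower in ectopicFzd1 than in control also with DOX, a comparison that shares no library with the one that chose the genes. From P3 to P14 the number series of the titles differs between the arms at every age, so series and genotype cannot be told apart there, and at P1 all libraries share 1 series. These 3 of 7 were called lower over P1 to P14, against 0.826% of genes called and 0.312% called lower. S100a5 fell by 0.84 on the log2 scale (SE 0.19, edgeR adjusted p = 0.0111), Nphs1 by 0.67 (SE 0.17, edgeR adjusted p = 0.0297) and Kirrel2 by 0.61 (SE 0.14, edgeR adjusted p = 0.0103). All ectopicFzd1 libraries lay under the lowest control library at 4 of 5 ages for S100a5, as for 0.126% of genes, and at 3 of 5 for Kirrel2 and Nphs1 (1.02% of genes at 3 or more). The Nphs1 call was lost without any single one of 8 libraries, namely ectopicFzd1 P1 replicate 2, P7 replicate 1 and P14 replicate 1 and control P1 replicates 2 and 3, P3 replicate 2, P7 replicate 1 and P10 replicate 2 (edgeR adjusted p up to 0.0648). It was also lost in DESeq2 (adjusted p = 0.0884). Kirrel3 (-0.21), Lrrc3b (-0.32), Pcp4l1 (-0.15) and Pcdh10 (0.21) did not pass.

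At P1, the first age sampled with DOX, all 3 passed. S100a5 was at 72.2, 61.3 and 59.1 CPM in control and at 2.76, 22.7 and 19.5 CPM in ectopicFzd1, a difference of -2.02 (SE 0.46, edgeR adjusted p = 0.00159). Kirrel2 was at 44.3, 46.8 and 50.8 CPM against 11.6, 21.2 and 35.8 CPM, a difference of -1.01 (SE 0.32, edgeR adjusted p = 0.0245). Nphs1 was at 4.86, 9.36 and 9.06 CPM against 4.02, 2.89 and 3.18 CPM, a difference of -1.22 (SE 0.43, edgeR adjusted p = 0.0448). No ectopicFzd1 library reached the lowest control library in these 3 genes, and at P1 14.8% of all genes were called, 6.11% lower. With DOX 39.9% of all genes lay wholly under control at 1 or more of the 5 ages.

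Leaving out any 1 of the 6 P1 libraries kept the S100a5 call. The Kirrel2 call was lost without each of them except ectopicFzd1 replicate 3 (edgeR adjusted p from 0.0571 to 0.211), and the Nphs1 call without each except control replicate 1 (0.0830 to 0.177). At P1 Fzd1 itself was at 54.5 to 64.0 CPM in ectopicFzd1 and at 47.8 to 54.3 CPM in control. The 13 mature markers summed to 760 to 1189 CPM against 1320 to 1388 CPM. Their mean log2 difference was -0.35, and S100a5, Kirrel2 and Nphs1 lay below it by 2.06, 0.80 and 0.62.

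Over P3 to P14 with P1 left out, a choice made after the data were seen, edgeR called none of the 7, among 60 genes called (0.271%). Of the 7, 5 had an unadjusted p below 0.05. The values were still negative, at -0.55 for S100a5, -0.53 for Nphs1 and -0.51 for Kirrel2, with edgeR adjusted p from 0.152 to 0.378. Omp moved with this comparison at every age but P3: with DOX it was between 20.6 and 63.6 CPM in all ectopicFzd1 libraries, and between 218 and 1444 CPM in control at P1, P7, P10 and P14. At those ages the Omp level and the genotype cannot be told apart. At P3, where control was at 23.9 to 36.2 CPM and ectopicFzd1 at 26.6 to 30.5 CPM, the differences were -0.90 for Nphs1 (SE 0.36), -0.42 for Kirrel2 (SE 0.31) and -0.30 for S100a5 (SE 0.42), and none passed.

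**Figure D4:**
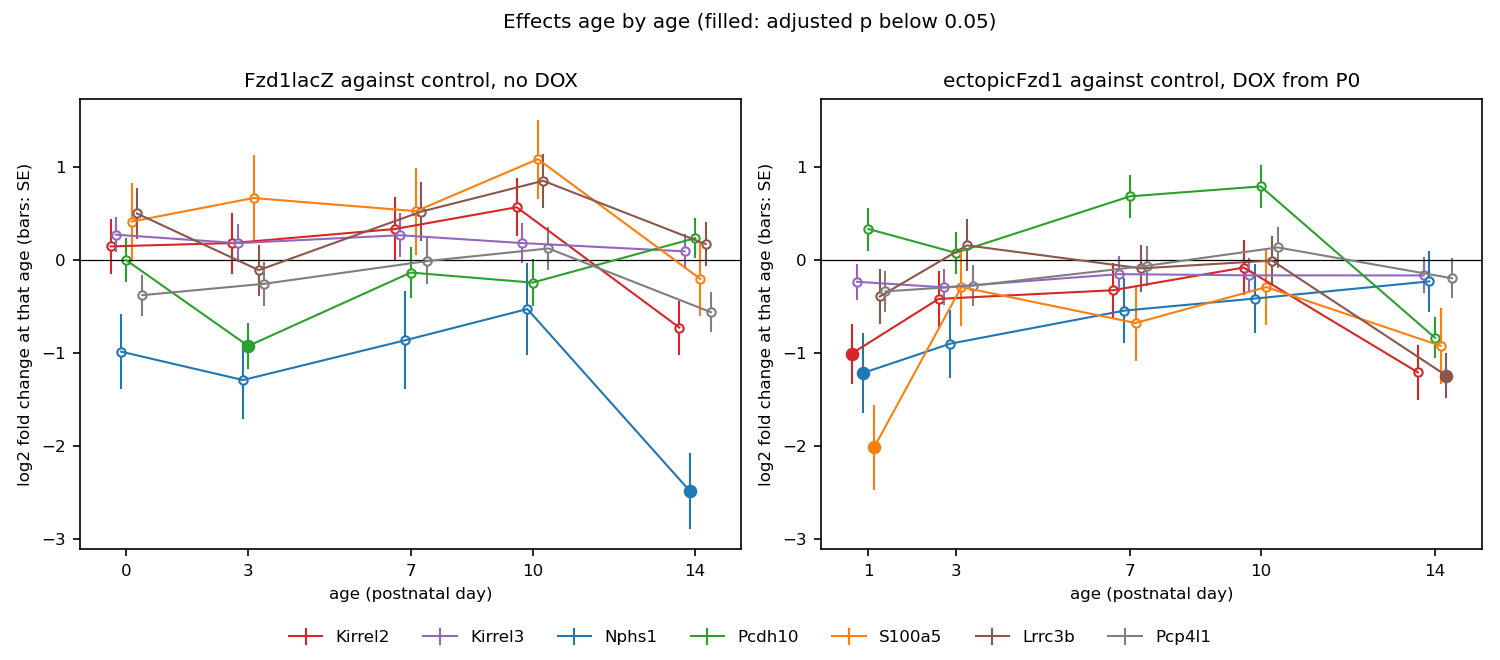
Log2 fold changes with standard errors at each age for Fzd1lacZ against control without DOX and for ectopicFzd1 against control with DOX. Filled points passed the threshold. Nphs1 is lowest at P14 in Fzd1lacZ (-2.49), S100a5 at P1 with DOX (-2.02), and Pcdh10 lies above 0 at P7 and P10 with DOX and below it at P14.

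Pcdh10, a homophilic adhesion molecule, and Lrrc3b followed another course with DOX. Their effects differed among the 5 ages in edgeR's quasi-likelihood F test (adjusted p = 0.00178 for Pcdh10 and 0.0291 for Lrrc3b), as did those of 9.60% of genes. Pcdh10 at P7 was at 38.8, 27.8 and 33.4 CPM in ectopicFzd1 and 23.5, 19.2 and 19.3 CPM in control, and at P10 at 31.2, 69.4 and 49.6 CPM against 28.0, 29.7 and 31.0 CPM. At P14 the order was turned, with 37.6, 44.2 and 63.1 CPM against 73.8, 93.8 and 88.0 CPM. The arms did not overlap at these 3 ages, nor at P1, with 29.4 to 35.1 against 21.5 to 28.8 CPM. Of all genes 1.18% had every ectopicFzd1 library above control at 3 or more ages. At 1 or more of the 5 ages 44.5% lay wholly above and 39.9% wholly below, so separation at a single age is common. No single age passed for Pcdh10, with log2 differences at P7, P10 and P14 of 0.68 (SE 0.23), 0.79 (SE 0.23) and -0.84 (SE 0.22). Lrrc3b passed at P14 alone, at 19.3, 26.4 and 22.5 CPM against 56.3, 61.4 and 44.3 CPM, a difference of -1.25 (SE 0.25, edgeR adjusted p = 0.0102), where 0.199% of genes were called. At P1 its arms did not overlap either, at 6.27 to 8.16 CPM against 8.55 to 10.5 CPM, and it did not pass (-0.40, SE 0.30). The P14 call was lost without control replicate 1 (edgeR adjusted p = 0.0503), control replicate 2 (0.117) or ectopicFzd1 replicate 1 (0.0880).

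DOX itself in control mice, over P3 to P14, gave no call among the 7 in edgeR, against 0.867% of genes called. At P3, P7 and P10 the number series of the titles differs between the arms, so series and DOX cannot be told apart there. At P14 the series is shared. Of them 1, Nphs1, had an unadjusted p below 0.05, and DESeq2 called 0 of the 7. Nphs1 was at 0.67 (SE 0.20, edgeR adjusted p = 0.0777). All its DOX libraries lay above all those without DOX at 4 of 4 ages, which 0.0361% of genes did. At P3 it was at 18.0, 20.3 and 14.1 CPM with DOX and 11.2 and 7.34 CPM without, and at P14 at 23.3, 26.7 and 29.7 CPM against 20.5, 21.3 and 21.7 CPM. Without the 2 libraries that go against their labels Nphs1 passed (log2 0.64, edgeR adjusted p = 0.0300), with 0.498% of genes called. Omp differed here too, at P7 (412 to 673 CPM with DOX, 30.0 and 30.1 CPM without) and P10 (865 to 890 against 46.9 to 61.1 CPM). The effect of DOX on Pcdh10 differed among ages (edgeR adjusted p = 0.0334, 2.89% of genes), from -0.82 (SE 0.24) at P10 to 0.49 (SE 0.22) at P14. Of 7 immediate early genes, which respond to neuronal and cellular stimulation within minutes, Fos, Egr1 and Nr4a1 were higher with DOX, by 1.67 (SE 0.36), 1.22 (SE 0.27) and 0.91 (SE 0.24), where 0.578% of all genes were called higher. The part of the title series in these differences was not tested.

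In the Fzd1 knockout Nphs1 was the only member called, against 2.85% of genes called and 1.42% called lower. It was 2.35-fold lower than in control over the 5 ages, a log2 difference of -1.23 (SE 0.20, edgeR adjusted p = 4.06e-05). Its levels were 2.54, 4.71 and 18.9 CPM (lowest, median and highest of 15 libraries) in Fzd1lacZ and 6.34, 11.2 and 21.7 CPM in 13 control libraries. All Fzd1lacZ libraries lay under the lowest control library at 3 of 5 ages, as for 1.97% of genes at 3 or more. The highest knockout value came from P10 replicate 1, where it rested on 13 counts, and its 2 companions were at 4.62 and 10.2 CPM. The call was kept without any single library and under each of the 13 alternatives tried (log2 from -0.72 on log2(TPM + 1) to -2.81).

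At P14 the gap was widest. Nphs1 was at 4.79, 3.05 and 4.0 CPM in Fzd1lacZ, from 11 to 24 counts per library, and at 20.5, 21.3 and 21.7 CPM in control, from 63 to 92 counts. The log2 difference was -2.49 (SE 0.41, edgeR adjusted p = 1.68e-04), where 0.714% of genes were called, and it was the sole member that passed at that age. Mature markers summed to 3212 to 5504 CPM against 4636 to 5398 CPM there, so the arms overlapped. Bowman gland markers did not: 5 genes summed to 497 to 733 CPM in Fzd1lacZ against 3200 to 4273 CPM in control at P14 and 983 to 2011 CPM in control with DOX. Over the 5 ages the gland genes Obp2a (-1.45, SE 0.35) and Obp2b (-1.63, SE 0.31), the sustentacular gene Cyp1a2 (-0.46, SE 0.11) and the basal cell gene Trp63 (-0.39, SE 0.11) were called lower in the knockout, and their part in the Nphs1 difference was not tested. The title series is shared by the arms at P14 and differs between them at the other 4 ages. At P0 Nphs1 stood at 4.75, 5.18 and 5.06 CPM in Fzd1lacZ. The effect was not shown to differ among ages (edgeR F test, adjusted p = 0.169).

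These knockout values share their control libraries with the comparison that chose the genes. Against the control libraries with DOX, which do not, Nphs1 differed by -1.97 over P3 to P14 (edgeR adjusted p = 3.27e-10, 7.43% of genes called) and by -2.81 at P14 (edgeR adjusted p = 6.41e-06, 1.82% of genes called). Genotype and DOX differ together in that comparison, which was added after the data were seen. Omp in Fzd1lacZ lay above the control libraries without DOX of the same age from P0 to P10 and overlapped them at P14 (1174 to 3018 against 1329 to 1514 CPM). Against control with DOX it overlapped at P10 (422 to 2677 against 865 to 890 CPM) and P14. The part of Omp was not tested.

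Kirrel2, the head-to-head neighbour of Nphs1, did not pass in the knockout. Its log2 difference was 0.10 with a 95% interval from -0.19 to 0.38, and that of Nphs1 ran from -1.64 to -0.83. At P14 Kirrel2 was at 82.3, 189 and 201 CPM in Fzd1lacZ, all under the 257 to 276 CPM of control (-0.73, SE 0.29, edgeR adjusted p = 0.347). Such separation is common, since 50.8% of all genes in Fzd1lacZ lay wholly under control at 1 or more of the 5 ages. Against control with DOX at P14 (336, 370 and 281 CPM) it was called lower, at -1.04 (edgeR adjusted p = 0.0417).

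S100a5 (0.49, SE 0.19) and Lrrc3b (0.38, SE 0.13) leaned higher in the knockout without passing (edgeR adjusted p = 0.181 and 0.0864). Without the 8 libraries rich in the satellite-like family the differences were 0.73 for S100a5, 0.54 for Lrrc3b and 0.27 for Kirrel3. Those left out include Fzd1lacZ P7 replicates 2 and 3, P10 replicates 1 and 3 and P14 replicate 1. Fzd1lacZ P7 replicate 1 and P10 replicate 2 were then alone in their groups, so only effect sizes are given. On log2(TPM + 1), where the median of all genes moved by -0.19, Kirrel2 (-0.32), Kirrel3 (-0.18) and Lrrc3b (-0.043) took the opposite sign, and Pcdh10 (-0.51) and Pcp4l1 (-0.60) passed as lower, where 24.5% of genes were called. Pcdh10 was lower at P3, at 20.1, 19.9 and 18.4 CPM against 39.9 and 34.0 CPM, a log2 difference of -0.93 (SE 0.25, edgeR adjusted p = 0.0441) where 1.08% of genes were called. This call was lost without any single one of the 5 libraries (edgeR adjusted p from 0.0905 to 0.531).

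Other genes of these pathways were counted from lists. Among partners of nephrin and Kirrel at the slit diaphragm, 4 were tested (Kirrel, Cd2ap, Tjp1 and Cask). None of the 4 passed in the knockout, with ectopic Fzd1 with or without DOX, or with DOX in control (medians from -0.04 to 0.02, where the median of all genes was -0.03 to 0.02). Of 9 other delta-protocadherins, relatives of Pcdh10 in cell adhesion, 3 were lower in the knockout (median of the 9 -0.22, of all genes 0.02), where 1.42% of all genes were called lower. They were Pcdh11x (-0.45, SE 0.09), Pcdh9 (-0.41, SE 0.08) and Pcdh7 (-0.32, SE 0.07), and none of the 9 passed in ectopicFzd1 with DOX averaged over ages. Without DOX, Pcdh9 (-0.58) and Pcdh7 (-0.25) were called lower in ectopicFzd1 too, where 6.52% of all genes were called lower. Of 9 genes of local axon sorting, Tenm4, a teneurin adhesion molecule, rose in the knockout (1.43% of all genes called higher) by 0.30 (SE 0.07) but stood at -0.09 on log2(TPM + 1), and with DOX no member passed in ectopicFzd1. Without DOX those called lower in ectopicFzd1 (6.52% of all genes) included Sema7a (-0.98), Epha5 (-0.61), Dscam (-0.38) and Efna3 (-0.47). Of 8 genes of global axon positioning, the guidance cue Sema3f rose in ectopicFzd1 with DOX by 0.33 (SE 0.08, 0.515% of all genes called higher). The semaphorin receptor Plxna3 (0.41, SE 0.09) and the guidance cue Slit1 (0.38, SE 0.10) were higher with DOX in control (0.578% of all genes). In ectopicFzd1 without DOX, Plxna3 (-0.605), Nrp1 (-0.39) and Robo2 (-0.21) were called lower. Sema3a was called higher there (0.19, 2.67% of all genes) but stood at -0.06 on log2(TPM + 1).

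Of 14 genes of the odorant signalling cascade, 10 are also among the 13 mature neuron markers. With ectopic Fzd1 without DOX, 12 of the 14 were lower (median -0.68, of all genes -0.01, 6.52% called lower), among them the phosphodiesterase Pde1c (-0.81, SE 0.08), the channel subunit Cnga4 (-0.95, SE 0.12), the cyclase Adcy3 (-1.05, SE 0.13) and the channel subunit Cngb1 (-0.77, SE 0.11). In ectopicFzd1 with DOX and in the knockout none of the 14 passed (medians -0.22 and 0.11). In the effect without DOX minus that with DOX, over P3 to P14, 5 of the 14 were called lower (2.12% of all genes), and the difference from the knockout was not tested. Markers of neurons of the olfactory bulb were low throughout, at 42.2 to 118 CPM for 7 genes summed. In the knockout Gad1 (-1.18, SE 0.34) and Eomes (-0.60, SE 0.17) of these 7 were called lower beside Nphs1 (Gad1 not with DESeq2's size factors, edgeR adjusted p = 0.0575), and their part in its difference was not tested.

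Over the means of the 25 groups, Kirrel2 and S100a5 ran most alike among the members (Pearson r = 0.968 of mean log2 CPM). Among 15815 genes of sufficient level the 3 most like Kirrel2 were S100a5, the sodium channel subunit Scn4b (0.967) and the sodium-calcium exchanger Slc8a1 (0.957). Those most like S100a5 were Kirrel2, Scn4b (0.968) and Pde1c (0.954). For Lrrc3b they were Dyrk4 (0.924), Fgf12 (0.920) and Stoml3 (0.917), for Pcp4l1 Kcnmb3 (0.951), Gpr162 (0.921) and Syngr1 (0.914), for Pcdh10 Dlgap3 (0.885), Hcn2 (0.856) and Mpp2 (0.838), and for Kirrel3 Nqo1 (0.875), Kcnc4 (0.869) and Slc24a2 (0.843).

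Nphs1 had the weakest best likeness, with Ypel4 (0.811), Gpr135 (0.806) and Fgf9 (0.805), and r = 0.735 with its neighbour Kirrel2. With the mean of the 13 mature markers the members had r from 0.609 for Nphs1 to 0.894 for Lrrc3b. All points come from the same libraries and share the age series and the ectopicFzd1 groups that chose the genes, so these r values only describe.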

How the data were processed

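Olfactory epithelium RNA, extracted with TRIzol, was made into stranded total RNA libraries after removal of ribosomal RNA, per the labels' protocols. The deposited counts are whole numbers of reads per gene, and the deposited TPM values are scaled by gene length by the authors. The submitters' processing notes name bcl2fastq 2.18, STAR 2.6.1c, RSEM and the mm10 build; how STAR and RSEM divide between the 2 tables is not given in the sources used here. Rows outside genes stayed out of all tests.

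Genes were filtered with filterByExpr, scaled by TMM and tested with edgeR 4.0.16 (R 4.3.3) in a quasi-likelihood fit with 1 term per group over all 72 libraries (47 residual degrees of freedom). P-values were adjusted by Benjamini-Hochberg over the 22144 genes tested, with a threshold of 0.05. Fold changes for several ages are means over ages. The alternatives were DESeq2 1.42.0, its size factors, other filters, limma 3.58.1 on log2(TPM + 1) and log2(TPM + 0.1), fewer groups, and leaving out libraries singly (with the trend of the dispersion kept) or by kind. Comparisons over P3 and P7, P3 alone, P3 to P14, or against control with DOX were chosen after the data were seen. The edgeR test was checked on simulated data. The members and the gene lists were chosen with earlier results of these data known. From each list up to 4 called genes with the smallest p in a comparison were named, and for each member the 3 genes most like it, leaving out predicted genes and odorant receptors. The markers of 9 cell types were measured; beside the neuron and bulb markers given with the results, those of immature neurons, progenitors, sustentacular cells, glia, glands and ciliated cells were present in every arm.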

Additional observations from a re-analysis of the deposited data

Results flagged for a closer look

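With DOX, the difference between ectopicFzd1 and control differed among the 5 ages for Pcdh10 (edgeR's quasi-likelihood F test, adjusted p = 0.00178): its log2 difference was 0.68 at P7, 0.79 at P10 and -0.84 at P14. The same test found a difference among ages for Lrrc3b (edgeR adjusted p = 0.0291), which was at -1.25 at P14 and between -0.40 and 0.15 at the other ages. In control mice the difference between DOX and no DOX differed among the 4 ages for Pcdh10 (edgeR adjusted p = 0.0334), from -0.82 at P10 to 0.49 at P14. Only at P14 do these control arms share a title series, so series and DOX cannot be told apart at the other ages. The tests named here share the control libraries with DOX, among them control with DOX P7 replicate 1, whose Fzd1 level goes against its label.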

How the results depend on the processing

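The number of the 7 genes called in each comparison depended on the processing as follows. In Fzd1lacZ 1 was called. The count was 3 with no filter on low counts, 3 on log2(TPM + 1) and 3 on log2(TPM + 0.1) in limma. It was 2 with only the groups compared, 2 at P14 against control with DOX, and 1 to 2 without single libraries (2 without Fzd1lacZ P10 replicate 1, 2 or 3 or P14 replicate 1). Without the libraries rich in the satellite-like family it was higher. That count is not given, since Fzd1lacZ P7 and P10 then rest on single libraries. In ectopicFzd1 with DOX 3 were called. The count was 1 with either TPM pseudocount, 0 at P3 alone, 0 over P3 to P14, and 2 to 3 without single libraries. For DOX in control 0 were called, and 1 with no filter, without the libraries against their labels, on log2(TPM + 1) or with only the groups compared. From P0 to P14 limma on either TPM scale called 0 in Fzd1lacZ (4 to 5 without single libraries, against 5) and 3 in control (5 to 7, against 6), and with DOX 4 of 7. The difference between the ectopic effects without and with DOX, which holds the contrast that chose the genes, gave 6, or 2 and 3 on the TPM scales and 5 to 7 without single libraries. The median of all genes moved by -0.12 and -0.23 (pseudocounts 1 and 0.1) in that difference, by -0.12 and -0.22 in ectopicFzd1 without DOX, by -0.19 and -0.34 in Fzd1lacZ, by -0.43 and -0.72 and by -0.32 and -0.50 with age in Fzd1lacZ and control, and by -0.59 and -0.86 with age under DOX.

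Signs turned in these cases. In Fzd1lacZ Kirrel2 was at -0.32 and -0.35, Kirrel3 at -0.18 and -0.33 and Lrrc3b at -0.043 and -0.11 on the 2 TPM scales. With age Kirrel2 in Fzd1lacZ was at -0.10 on both, Kirrel3 at -0.46 and -0.55 in Fzd1lacZ, -0.12 and -0.14 in control and -0.44 and -0.53 with DOX, and Pcdh10 with DOX at -0.02 and -0.029. Without the libraries rich in the satellite-like family Pcp4l1 in Fzd1lacZ was at 0.008. At P14 alone in Fzd1lacZ Kirrel2 was at -0.73, Pcdh10 at 0.23 and S100a5 at -0.21. Against control with DOX Kirrel2 was at -0.13 over P3 to P14 and -1.04 at P14, and Lrrc3b at -0.57 at P14. For DOX in control at P14 alone, Kirrel3 was at -0.12, Pcdh10 at 0.49, S100a5 at -0.30 and Pcp4l1 at -0.12, and at P3 alone Kirrel2 was at -0.11, Pcdh10 at 0.11, S100a5 at -0.18 and Lrrc3b at -0.45. In ectopicFzd1 with DOX at P3 alone Lrrc3b was at 0.15. Without single libraries Kirrel2 in Fzd1lacZ ranged from -0.038 to 0.18 and S100a5 for DOX in control from -0.039 to 0.16. The cause was not tested for any of these.

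No paired analysis was possible because the labels carry no replicate numbers. Counts of all genes called moved too. In Fzd1lacZ 630 were called, between 394 (without control P7 replicate 1) and 1997 (without Fzd1lacZ P10 replicate 2), and 5431 on log2(TPM + 1). Leaving out the libraries rich in the satellite-like family raised the count too, but Fzd1lacZ P7 and P10 then rest on single libraries. In ectopicFzd1 with DOX 183 were called, and 41 on log2(TPM + 1), 278 in DESeq2 and 436 without the libraries rich in that family. For DOX in control 192 were called, and 53 to 186 without single libraries, 32 on log2(TPM + 1), 500 in DESeq2 and 1377 with only the groups compared. Low counts limit Nphs1, Lrrc3b and Kirrel3.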
